A study of Bos taurus with 38 samples.

Results

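The transcripts of 4 genes, SRGN (ENSBTAG00000017863), VIM (ENSBTAG00000018463), CCND2 (ENSBTAG00000016649) and TRIB2 (ENSBTAG00000016045), out of 27607 genes counted, were followed in single cattle oocytes and in the cumulus cells that surrounded them. The 4 genes were chosen by results already known from these libraries: their high transcript abundance in cumulus cells and the many cumulus genes with which their oocyte levels correlated. Their cumulus abundance, the level of their oocyte to cumulus ratio and their correlations are therefore given as descriptions without a test. Cumulus-oocyte complexes came from antral follicles of abattoir ovaries of Bos taurus and were exposed to Brilliant cresyl blue (BCB), a dye that is lost by oocytes with active glucose-6-phosphate dehydrogenase and kept by oocytes that have finished their growth. The oocytes of 9 complexes kept the blue colour (BCB positive) and those of 10 complexes lost it (BCB negative). Each of the 19 complexes was split into its single oocyte and its cumulus cells, and both were sequenced from amplified complementary DNA, which makes 38 libraries. The labels name neither the animal nor its age, and several complexes may have come from the same animal, in which case p-values measure the spread between complexes and not between animals.

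SRGN encodes serglycin, the core protein of a proteoglycan that is stored in secretory granules and secreted with its glycosaminoglycan chains. VIM encodes vimentin, the intermediate filament protein of mesenchymal and granulosa cells. CCND2 encodes cyclin D2, which partners with CDK4 and CDK6 to drive cells out of G1 and which follicle-stimulating hormone induces in granulosa cells, and TRIB2 encodes a pseudokinase of the tribbles family that brings substrates to the ubiquitin ligase COP1 and binds AKT and MAP kinase kinases. Cumulus cells touch the oocyte through projections that cross the zona pellucida, and an oocyte library can only be made after these cells are stripped away.

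Cumulus libraries held between 1103200 and 10430148 counts, with a median of 5853816 in BCB positive and 2252271 in BCB negative complexes, and oocyte libraries held between 8886070 and 29810354. Transcripts of 13 genes encoded by mitochondrial DNA made up 0.966% to 2.86% of the cumulus counts in BCB positive and 1.17% to 17.4% in BCB negative complexes. Cumulus libraries matched their label, with summed levels of 13 granulosa and cumulus markers between 4501 and 26220 CPM (counts of a gene scaled to a common library total), and oocyte libraries matched theirs, with the 3 oocyte markers that could be named (ZP2, ZP3, DAZL) summing to between 2767 and 5095 CPM. In the cumulus libraries the same oocyte markers summed to at most 1.82 CPM in BCB positive complexes, and reached 49.9 and 66.5 CPM in BCB negative complexes 68 and 66. The labels number the complexes, and the numbers were grouped here into 3 runs that the labels do not name. These are 6 to 24 with 3 BCB positive and 1 BCB negative complexes, 65 to 74 with 6 and 3, and 86 to 91 with 6 BCB negative complexes only. In the last run the class and the run cannot be told apart. In bulk libraries such as those of cumulus cells, fewer cells of a type and less RNA per cell cannot be told apart.

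In cumulus cells all 4 genes were detected in every library with at least 389 counts, and none of them passed the test between the BCB classes. SRGN was the 6th and VIM the 9th most abundant of 12313 genes kept (CPM above 2 in at least 9 libraries) by mean CPM, which is not corrected for transcript length. TRIB2 stood 70th and CCND2 158th on the same scale. Together the 4 genes took between 0.829% and 1.72% of all cumulus counts, with a median of 1.34%.

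Serglycin and vimentin transcripts varied little between cumulus libraries. On library totals, SRGN ranged from 4928 to 9027 CPM with a median of 6027 in the 9 BCB positive and from 4238 to 7777 CPM with a median of 5122 in the 10 BCB negative libraries. VIM ranged from 4064 to 7175 CPM (median 4819) in BCB positive and from 3058 to 6614 CPM (median 4223) in BCB negative libraries. The classes overlapped widely for both genes, and the highest library exceeded the lowest by 2.13-fold for SRGN and by 2.35-fold for VIM. After scaling with TMM factors (trimmed mean of M values, which correct a library for its most abundant and most changed genes), the medians changed order, to 5055 CPM in BCB positive and 6086 in BCB negative for SRGN and to 3829 and 5372 for VIM.

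CCND2 and TRIB2 separated the classes further on library totals. CCND2 ranged from 811 to 1279 CPM (median 960) in BCB positive and from 331 to 823 CPM (median 579) in BCB negative libraries, so that 6 of 9 BCB positive libraries lay above every BCB negative one. TRIB2 ranged from 1341 to 2487 CPM (median 1770) in BCB positive and from 270 to 1856 CPM (median 1028) in BCB negative libraries. Here 9 of 10 BCB negative libraries lay below every BCB positive one, the closest at 1340 CPM in complex 90 against 1341 in complex 73. On this scale the median log2 fold change of all genes was itself 0.46, BCB positive over BCB negative. The share of all genes with such counts of separated libraries is not given. After TMM scaling most of the gap between the class medians closed, at 775 and 657 CPM for CCND2 and 1388 and 1290 CPM for TRIB2. The number of BCB positive libraries above every BCB negative one was then 0 of 9 for CCND2 and 3 of 9 for TRIB2, the latter as on library totals. Among BCB negative libraries TRIB2 had the largest coefficient of variation of the 4 genes after TMM scaling, at 37.5%, with its lowest value in complex 6, and among BCB positive libraries SRGN had the largest, at 24.8% against 23.8% for TRIB2.

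**Figure D1:**
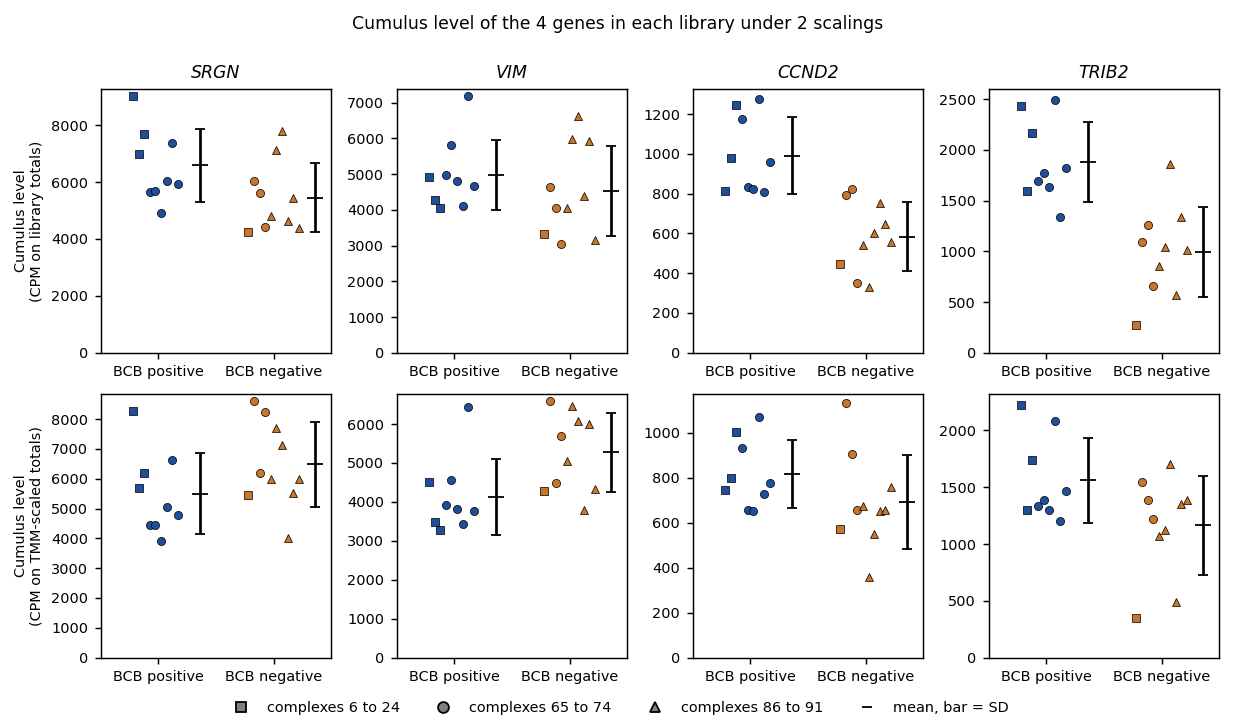
Cumulus level in CPM (vertical axes, starting at 0) of SRGN, VIM, CCND2 and TRIB2 in each of 9 BCB positive and 10 BCB negative libraries; the upper row is scaled to library totals and the lower row to TMM-scaled totals, symbols give the run of complex numbers, and bars give mean and SD. CCND2 and TRIB2 stood higher in BCB positive libraries in the upper row, with medians of 960 against 579 and 1770 against 1028 CPM, and overlapped in the lower row, while SRGN and VIM stood lower in BCB positive libraries in the lower row only.

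The fit over all genes (edgeR quasi-likelihood with TMM, Benjamini-Hochberg adjustment) called 0 of the 4 genes at an FDR of 0.01, beside 0.56% of the 12313 genes tested, 0.0406% higher and 0.52% lower in BCB positive cumulus. The log2 fold change, BCB positive over BCB negative, was -0.24 ± 0.16 (SE) for SRGN with an edgeR adjusted p of 0.432 and -0.35 ± 0.15 for VIM with an edgeR adjusted p of 0.199, so that only VIM had an unadjusted p under 0.05 (0.0258). It was 0.24 ± 0.17 for CCND2 with an edgeR adjusted p of 0.454 and 0.42 ± 0.23 for TRIB2 with an edgeR adjusted p of 0.328. The approximate 95% intervals of the fold were 0.682 to 1.05 for SRGN, 0.641 to 0.958 for VIM, 0.942 to 1.48 for CCND2 and 0.983 to 1.83 for TRIB2.

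The scaling decided the direction for 2 of these genes and the call for the other 2. On library totals alone the median of all 12313 genes moved from -0.01 to 0.46 on the log2 scale, and 14.1% of all genes passed the threshold. In that fit CCND2 (log2 fold change 0.76, edgeR adjusted p 0.00532) and TRIB2 (0.92, edgeR adjusted p 0.00716) passed it, and SRGN and VIM turned to 0.27 and 0.14. Relative to the median of all genes, SRGN and VIM lay below it and CCND2 and TRIB2 above it under both scalings. With TMM and the log10 library total as a covariate SRGN turned to 0.11 (edgeR adjusted p 0.889), so that no direction is given for it. Cumulus library totals and the mitochondrial share moved with the class, as given above, and their part in these values was not tested.

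Within the 9 complexes numbered 65 to 74 the values of CCND2 and TRIB2 lay near the median of all genes. With TMM the log2 fold change was -0.18 ± 0.23 for CCND2 and 0.06 ± 0.21 for TRIB2, with edgeR adjusted p of 0.743 and 0.918. It was -0.66 ± 0.23 for SRGN and -0.38 ± 0.24 for VIM, with edgeR adjusted p of 0.19 and 0.485. On library totals in these 9 complexes all 6 BCB positive libraries exceeded the 3 BCB negative ones for TRIB2 (1341 to 2487 against 658 to 1262 CPM), beside 39.7% of all genes that did the same. In the fit on library totals TRIB2 was higher by 0.84 and CCND2 by 0.58 on the log2 scale, where the median of all genes was 0.78. SRGN and VIM turned to 0.15 and 0.42 in that fit.

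**Figure D2:**
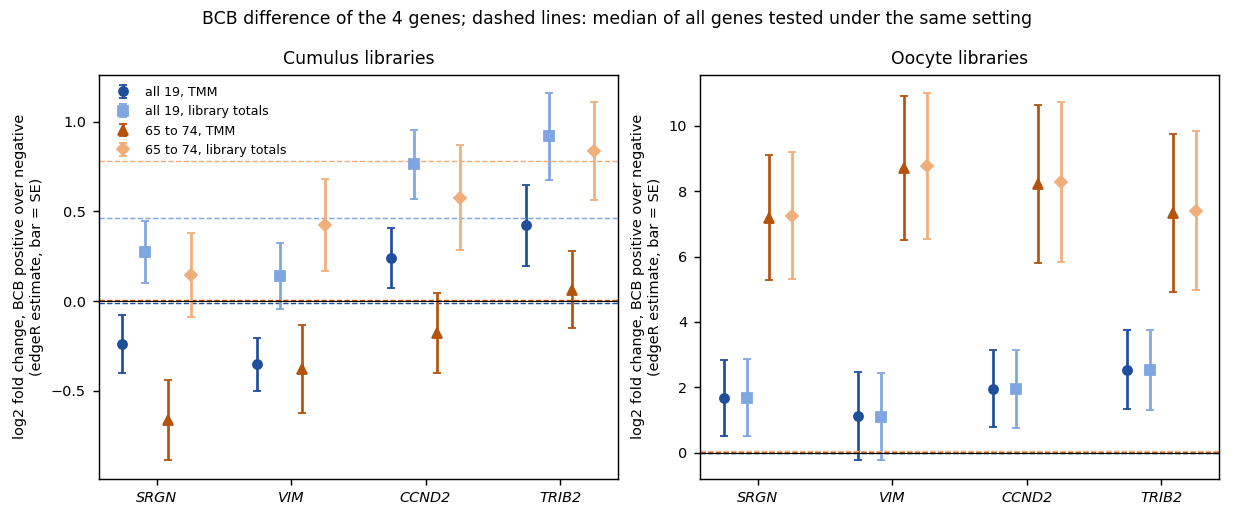
log2 fold change of SRGN, VIM, CCND2 and TRIB2 between BCB positive and BCB negative complexes (vertical axes, edgeR estimate, bars are SE) in cumulus (left) and oocyte libraries (right), over all 19 complexes and over complexes 65 to 74, with TMM or library totals; dashed lines give the median of all genes under the same setting. In cumulus cells each gene moved by about the shift of the all-gene median between scalings (from -0.01 to 0.46 for all 19 complexes), and in oocytes the 4 estimates under both scalings lay between 1.11 and 2.54 over all complexes and between 7.19 and 8.77 within 65 to 74.

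None of the named relatives of these genes passed the test in cumulus cells, where 0.56% of all genes passed, a share at which lists this short hold few calls or none. Names were at hand for only part of the genes, mostly genes with low p-values in the BCB comparisons, so counts over the lists are over named genes and lean toward genes that differ. Of 12 named G1 cyclins, kinases and inhibitors, 0 passed the test in either direction, with a median log2 fold change of 0.05 without CCND2 against -0.01 over all genes. CDK4, the kinase that cyclin D2 activates, had 0.30 ± 0.16 and CCND3, a second D-type cyclin at a median of 11.8 CPM, had 0.22 ± 0.20. The 9 named replication and division genes had 0 calls and a median of 0.39.

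Among 7 named intermediate filament and lamin genes 0 passed in either direction. The keratins of simple epithelia were low and uneven beside vimentin, KRT8 between 8.10 and 268 CPM and KRT18 between 0.529 and 183 CPM, and their log2 fold changes of -2.66 ± 0.59 (edgeR adjusted p 0.018) and -3.78 ± 0.81 (edgeR adjusted p 0.0151) missed the threshold. VCAN, the versican core protein of the cumulus matrix, stood between 1470 and 5540 CPM with a log2 fold change of -0.31 ± 0.14 (edgeR adjusted p 0.247). All 13 tested genes of glycosaminoglycan chain synthesis, the enzymes that load proteoglycans such as serglycin, had positive values with a median of 0.46, and 0 passed. Other named lists leaned the same way, with positive values for 12 of 13 granulosa and cumulus markers and 8 of 9 replication and division genes. By contrast, 3 of 7 intermediate filament and lamin genes and 0 of 13 mitochondrial genes were positive, and the median over all genes was -0.01. Of the 7 tested genes around tribbles and AKT 0 passed, and TRIB1, at a median of 1.82 CPM, was too low to be tested in cumulus cells while it stood at a median of 151 CPM in oocytes. No identifier was paired with CCND1, CDK6, TRIB3, DES or CD44, and these were not analysed here. Of the 13 tested granulosa and cumulus markers 0 passed with a median of 0.44, and all 13 mitochondrial genes had negative values, from -3.37 to -2.65 with a median of -3.06, of which 11 passed the test. Of other cell types, 1 endothelial gene was tested (-0.77, not called), the haemoglobin gene HBA lay between 0.265 and 573 CPM (0.41, not called), the 1 named theca and stroma gene was too low to be tested, and no leukocyte marker could be named.

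The 4 genes did not rise and fall as a group across cumulus libraries. On log2(CPM + 1) with TMM factors over the 19 cumulus libraries, SRGN and VIM had a Pearson r of 0.64 and CCND2 and TRIB2 an r of 0.41. VIM and CCND2 had an r of -0.41, SRGN and TRIB2 0.31, and SRGN and CCND2 -0.07 and VIM and TRIB2 0.02. With each complex left out in turn, SRGN and VIM ran from 0.58 to 0.705 and CCND2 and TRIB2 from 0.35 to 0.49. VIM and CCND2 then ran from -0.66 to -0.26 and SRGN and TRIB2 from 0.15 to 0.37. The sign changed for SRGN and CCND2 (-0.27 to 0.15) and for VIM and TRIB2 (-0.10 to 0.12). Both genes of a pair come from the same library and share its depth and its scaling factor. On library totals all 6 coefficients were positive, between 0.15 and 0.69, and on the scale of the study, the inverse hyperbolic sine of counts divided by the TMM factor, which keeps library depth, they lay between 0.82 and 0.95, where SRGN itself had an r of 0.95 with the log10 library total.

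Some of these pairs differed between the classes. SRGN and VIM had an r of 0.81 in the 10 BCB negative and 0.32 in the 9 BCB positive libraries, and VIM and TRIB2 had 0.64 and -0.32. These class values rest on few libraries and were not tested against each other. With TMM scaling SRGN also declined with cumulus library total (r = -0.71), where VIM had -0.45, CCND2 0.03 and TRIB2 0.17, while on library totals the same coefficients were 0.23, 0.50, 0.60 and 0.54.

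**Figure D3:**
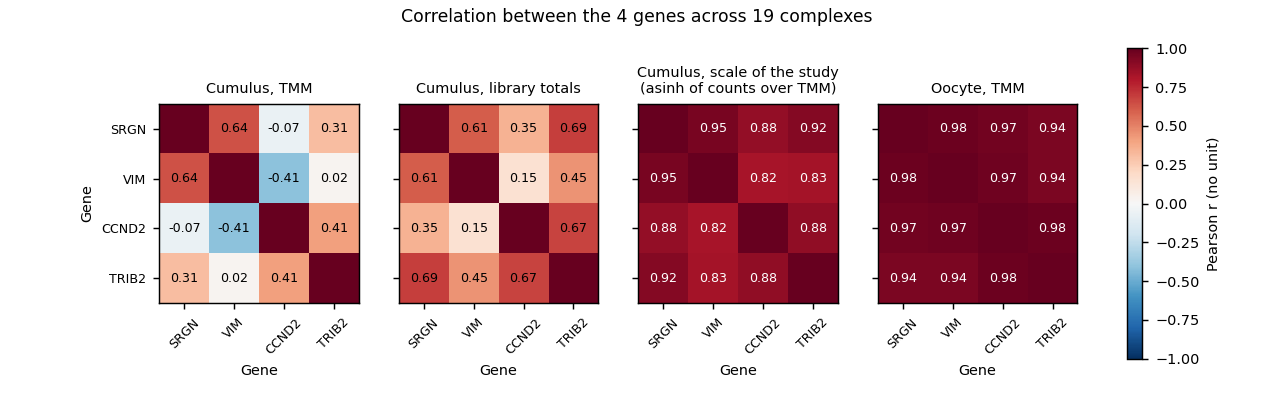
Pearson r between SRGN, VIM, CCND2 and TRIB2 across 19 complexes (colour scale from -1 to 1), in cumulus libraries under 3 scalings and in oocyte libraries with TMM. Cumulus coefficients ran from -0.41 to 0.64 with TMM and from 0.82 to 0.95 on the scale that keeps library depth, while oocyte coefficients with TMM ran from 0.94 to 0.98.

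TRIB2 followed the inhibin genes in cumulus cells. The named gene with the profile most like TRIB2 over the 19 cumulus libraries was INHA, the inhibin alpha subunit, with an r of 0.93, followed by INHBA, the inhibin and activin beta A subunit, at 0.92 and by SUSD4, a complement regulator, at 0.91. INHA ranged from 272 to 7310 CPM and INHBA from 64.3 to 10100 CPM. Without complex 6, which held the lowest value of TRIB2, the coefficients were 0.85, 0.85 and 0.83, and Spearman's rho over all libraries was 0.62, 0.75 and 0.64.

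Among the 4490 named genes kept, CCND2 was most like ASB6 (r = 0.86), LRRC8A, a subunit of the volume-regulated anion channel (0.82), and OAT, the ornithine aminotransferase of mitochondria (0.81). VIM was most like ZC3H10 (0.80), RPL27A, a ribosomal protein of the large subunit (0.80), and PRRT4 (0.77), which stood 3rd, 5th and 13th among all 12312 other genes. SRGN was most like LRIF1 (0.76), ING3, a subunit of a histone acetyltransferase complex (0.76), and PPM1A, a phosphatase (0.76), which stood 4th to 6th among all genes, where VIM stood 89th. The library kit does not mark strand, so that reads of a gene and of an overlapping neighbour cannot be told apart for any of these names.

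In oocyte libraries the 4 genes ranged over orders of magnitude and moved together. SRGN ran from 5.79 to 936 CPM (median 51.2) in BCB positive and from 1.28 to 351 CPM (median 5.37) in BCB negative oocytes. VIM ran from 0.137 to 630 CPM (median 28.2) in BCB positive and from 0.303 to 360 CPM (median 2.73) in BCB negative oocytes. The classes overlapped over most of these ranges for both genes.

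CCND2 ran from 0 to 122 CPM (median 5.28) in BCB positive and from 0 to 30.7 CPM (median 1.16) in BCB negative oocytes. TRIB2 ran from 0.274 to 272 CPM (median 7.42) in BCB positive and from 0 to 50.7 CPM (median 1.25) in BCB negative oocytes. The highest library of all was that of complex 72 for each gene, with 22715 counts of SRGN, and the next highest was complex 74 for SRGN and CCND2 and complex 88 for VIM and TRIB2. At the other end the counts were few, with 2 of VIM in complex 17 and 0 of CCND2 in complexes 17 and 68 and of TRIB2 in complex 65.

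The coefficients between the 4 genes in oocytes lay between 0.94 and 0.98 over 19 libraries with TMM. Unlike in cumulus cells, library totals alone gave nearly the same values, since TMM factors of oocyte libraries were within 0.958 and 1.03. Of the 12752 other genes, VIM was the 2nd most like SRGN in oocytes and CCND2 the 2nd most like TRIB2. Genes chosen after their values were seen, FST (follistatin, r of 0.98 with SRGN and 0.99 with VIM) and INHA (0.98 with CCND2 and 0.98 with TRIB2), stood first in these orders.

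Set against the cumulus cells of the same complex, the oocyte level of each gene was a small percentage that differed between complexes far more than between genes. In complex 72 the oocyte held 15.5% of the cumulus CPM for SRGN, 15.3% for VIM, 9.52% for CCND2 and 10.9% for TRIB2. In complex 74 the values were 5.97%, 4.75%, 3.77% and 2.47%, and in complex 88, a BCB negative one, they were 4.51%, 5.45%, 5.12% and 2.73%. A ratio of this kind compares a gene with itself, so that transcript length does not enter.

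The median complex held 0.387% of the cumulus level for SRGN, 0.248% for VIM, 0.423% for CCND2 and 0.326% for TRIB2. SRGN had the highest percentage of the 4 genes in 12 of 19 complexes. In some complexes with low percentages the genes lay far apart. In complex 17 SRGN stood at 0.0788% and VIM at 0.00278%, and in complex 6 TRIB2 stood at 0.453% and VIM at 0.0128%, a spread of 35.3-fold between genes. In BCB positive complexes 24 and 69 to 74 the highest and the lowest of the 4 percentages differed by between 1.49-fold and 2.42-fold, and BCB negative complexes 88, 89 and 91 lay in the same range, the last with percentages of only 0.0354% to 0.0678%. The count of 0 for CCND2 in complex 17 allows up to 0.0252% of its cumulus level, that in complex 68 up to 0.0906%, and that for TRIB2 in complex 65 up to 0.0205%, limits that cover counting error only.

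Most markers of granulosa and cumulus cells that were followed one by one were high in the same oocyte libraries. INHA in the oocyte stood at 10.3% of its cumulus level in complex 72, at 3.74% in complex 74 and at 3.52% in complex 88, and at 0.00168% in complex 17. FSHR, the follicle-stimulating hormone receptor, stood at 9.96%, 2.43%, 2.73% and 0.0766% in the same complexes. FOXL2, a granulosa transcription factor, was at 10.1% in complex 72 and had 0 counts in complexes 17 and 66. SERPINE2, a protease inhibitor, had its highest oocyte levels in the same complexes, at 666 CPM in 72, 233 in 88 and 181 in 74, but stayed at or above 51.6 CPM in every oocyte. Its percentages of 5.26% in complex 66 and 7.62% in 68 go with low cumulus levels there, 1500 and 1110 CPM. The 13 named markers summed to between 78.9 and 2505 CPM in BCB positive and between 87.5 and 584 CPM in BCB negative oocytes, and between 0 and 3 of the 13 had no count in a given oocyte library. The log2 levels of the 4 genes had an r between 0.87 and 0.97 with the log2 sum of these markers over the 19 oocyte libraries. SERPINE2 made up most of that sum where it was lowest, with 51.6 of 78.9 CPM in complex 17 and 73.9 of 87.5 CPM in complex 65. The sum is not a measure of each marker, since GATM and AMHR2 reached at most 3.64 and 1.11 CPM in any oocyte. The part of cumulus RNA in the oocyte levels of SRGN, VIM, CCND2 and TRIB2 was not tested.

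**Figure D4:**
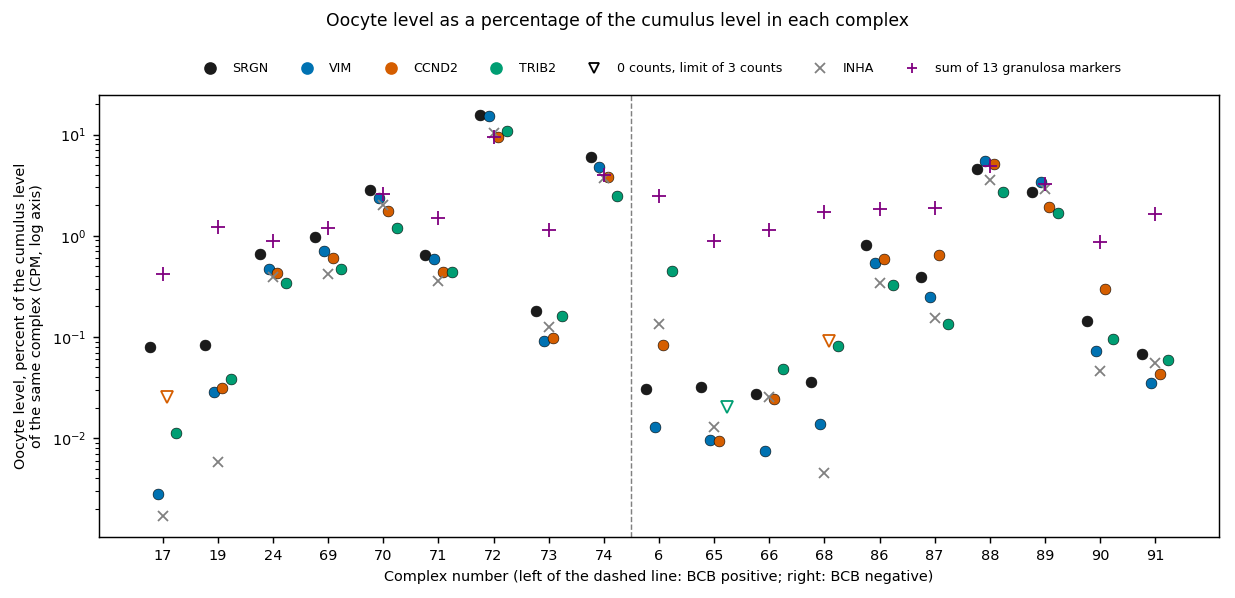
Oocyte level as a percentage of the cumulus level of the same complex (CPM on library totals, log axis) for SRGN, VIM, CCND2 and TRIB2, for INHA and for the sum of 13 granulosa markers, by complex; open triangles give the limit of 3 counts where a gene had 0 counts. The 4 genes and INHA stood between 9.52% and 15.5% in complex 72 and stood below 0.1% in, among others, complexes 17, 65 and 66, while the marker sum stayed above 0.4%.

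In oocytes none of the 4 genes passed the test between BCB classes over all complexes. The log2 fold change was 1.68 ± 1.17 for SRGN, 1.12 ± 1.34 for VIM, 1.96 ± 1.18 for CCND2 and 2.54 ± 1.21 for TRIB2, with edgeR adjusted p between 0.888 and 0.944. The fit called 0% of 12753 genes in either direction, while 711 had an unadjusted p under 0.05 and DESeq2 called 1 gene. With the run of complex numbers as a covariate the estimates were 6.46, 7.92, 6.34 and 5.11, with edgeR adjusted p between 0.25 and 0.373. They also moved with complexes 72 and 88: without complex 72 they fell to between 0.04 (VIM) and 0.75 (TRIB2), and without complex 88 they rose to between 2.46 (VIM) and 4.24 (TRIB2).

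Among complexes 65 to 74 the classes did not overlap for any of the 4 genes. SRGN stood at 13.2, 31.9, 55.4, 162, 355 and 936 CPM in the 6 BCB positive oocytes (complexes 73, 71, 69, 70, 74 and 72) and between 1.52 and 1.94 CPM in the 3 BCB negative ones. VIM stood between 6.53 and 630 CPM against 0.303 to 0.447 CPM, CCND2 between 0.784 and 122 CPM against 0 to 0.202 CPM, and TRIB2 between 2.18 and 272 CPM against 0 to 0.607 CPM. Every BCB positive library lay above every BCB negative one for all 4 genes, beside 4.87% of the 12753 genes tested. The estimates in these 9 complexes were between 7.19 and 8.71 on the log2 scale. They are given without a test, since the genes were chosen by correlations on a scale that keeps cumulus depth. In this run cumulus depth and the class cannot be told apart. The 13 granulosa markers summed to between 138 and 2505 CPM in the 6 BCB positive oocytes of this run and to between 87.5 and 111 CPM in the 3 BCB negative ones, so that these did not overlap either. The matching cumulus libraries held 4386946 to 10430148 counts in BCB positive and 1103200 to 1650795 counts in BCB negative complexes. The part of the markers and of cumulus depth in the result was not tested. In the run 6 to 24 SRGN stood at 7.11, 5.79 and 51.2 CPM in BCB positive oocytes 17, 19 and 24 and at 1.28 CPM in BCB negative oocyte 6, while VIM was lower in oocyte 17 (0.137 CPM) than in oocyte 6 (0.428 CPM), and CCND2 and TRIB2 were lower in both 17 and 19 than in 6. These orders rest on 1 BCB negative oocyte and on few counts. Oocytes 17, 19 and 6 held 0, 3 and 6 counts of CCND2 and 4, 6 and 20 of TRIB2.

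The oocyte to cumulus ratio asks the same question per complex. On log2(CPM + 1) with TMM factors the oocyte minus cumulus level of SRGN was -7.10 ± 2.62 (SD, n = 9) in BCB positive and -9.48 ± 2.69 (SD, n = 10) in BCB negative complexes. The difference of 2.38 had a p of 0.0692 by a two-sided exact permutation test over 92378 splits. The differences were 2.13 for VIM (exact permutation p = 0.140), 0.97 for CCND2 (exact permutation p = 0.303) and 1.12 for TRIB2 (exact permutation p = 0.256). These p-values cannot decide on a class difference, since the genes were chosen by correlations on a scale that keeps cumulus depth. That depth differed by class over all complexes too, with medians of 5853816 and 2252271 counts. The fits of oocyte levels and across both compartments over all complexes carry the same limit. Among complexes 65 to 74 the differences were 5.88, 5.94, 3.56 and 3.68. These are given without a test, since the genes were chosen by correlations on a scale that keeps cumulus depth, and in this run cumulus depth and the class cannot be told apart. Every BCB positive complex lay above every BCB negative one for each of the 4 genes, beside 4.63% of 10281 genes.

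The fit across both compartments, in which the BCB effect may differ between oocyte and cumulus cells, called 0 of the 4 genes over all complexes, beside 0.525% of 10281 genes tested. The difference of the BCB effect, oocyte minus cumulus, was 1.98 ± 1.21 for SRGN, 1.52 ± 1.41 for VIM, 1.78 ± 1.16 for CCND2 and 2.19 ± 1.23 for TRIB2 on the log2 scale, with edgeR adjusted p between 0.495 and 0.724. Without complex 72 the values were 0.87, 0.37, 0.47 and 0.39, without complex 88 they were 3.22, 2.85, 2.82 and 3.81, and DESeq2 turned VIM to -0.97 and TRIB2 to -0.12. With each complex as a replicate block, which uses the pairing of an oocyte with its own cumulus cells, the number of genes called fell from 54 to 2 and the 4 values were 2.88, 3.12, 1.53 and 1.78 with edgeR adjusted p between 0.474 and 0.739. Among complexes 65 to 74 the values were 7.92 ± 1.48 for SRGN, 9.15 ± 1.62 for VIM, 8.40 ± 2.01 for CCND2 and 7.32 ± 1.90 for TRIB2 in a fit that called 0.584% of all genes. With each complex as a replicate block in this run the fit called 7 genes instead of 60, and the values were 6.64 ± 1.36, 7.94 ± 1.66, 7.07 ± 1.81 and 5.59 ± 1.51. Like the ratios of this run, these are a description of the 4 genes without a test.

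The relation of the oocyte level of a gene with its own cumulus level depended on the scaling and on the complexes. Across the 19 complexes the r of oocyte with cumulus log2 level was -0.47 for SRGN, -0.27 for VIM, 0.07 for CCND2 and 0.21 for TRIB2 with TMM, and between 0.23 and 0.43 on library totals. On the scale of the study it was between 0.61 and 0.79. Within the 9 complexes 65 to 74 it was -0.72 for SRGN, -0.75 for VIM, 0.14 for CCND2 and 0.67 for TRIB2 with TMM, and 0.24, 0.25, 0.66 and 0.85 on library totals. The oocyte levels did follow the count total of the cumulus library, with an r between 0.69 and 0.78 and a Spearman rho between 0.81 and 0.83.

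**Figure D5:**
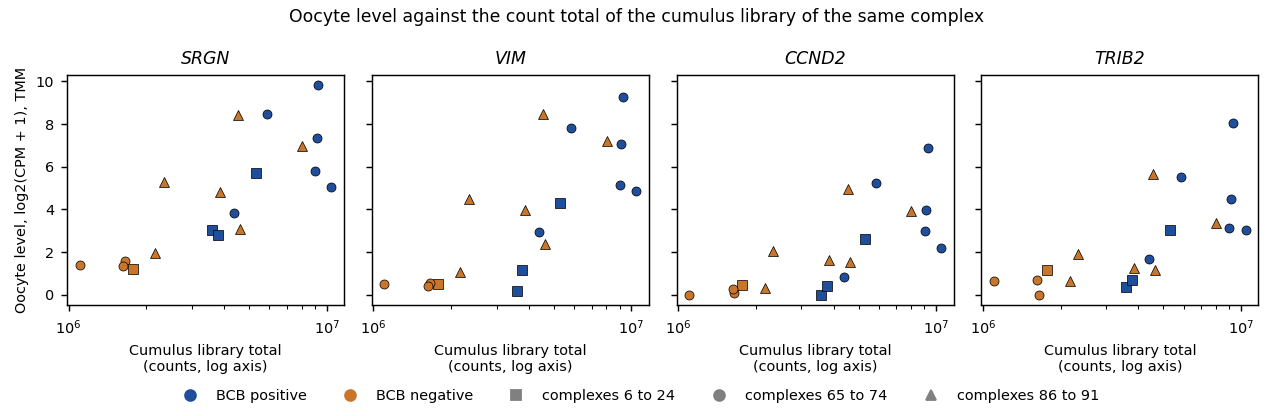
Oocyte level of SRGN, VIM, CCND2 and TRIB2 (vertical axis, log2(CPM + 1) with TMM) against the total count of the matching cumulus library (log axis); colour gives the BCB class and the symbol the run of complex numbers. Oocyte levels were low in complexes with small cumulus libraries and highest in complex 72, with a Pearson r between 0.69 and 0.78.

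The connections of these oocyte genes with cumulus genes differed between scalings. On the scale of the study SRGN reached an r of 0.85 or more with 49 of 12313 cumulus genes, VIM with 27, CCND2 with 21 and TRIB2 with 20; 0 genes passed the same size with a negative sign. Of the 81 cumulus genes connected to at least 1 of them, 59 were connected to 1 and 5 to all 4: CITED2, HIPK1, INPP5F, NUDT9 and RSRP1. SRGN and VIM shared 15 cumulus genes, which is 30.6% of those of SRGN and 55.6% of those of VIM.

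CITED2, a transcriptional co-regulator, was first for VIM (0.89), CCND2 (0.89) and TRIB2 (0.90) and second for SRGN (0.89), behind MAPK3 (0.91), which encodes the kinase ERK1. The other leading names were BCL10, an adaptor of NF-kappaB signalling, for SRGN (0.89), HIPK1, a nuclear kinase, for VIM (0.89) and CCND2 (0.88), INPP5F, a phosphoinositide phosphatase, for VIM (0.88) and TRIB2 (0.88), and RSRP1 for CCND2 (0.88). On this scale each of these named cumulus genes had an r between 0.83 and 0.93 with cumulus depth on a log10 scale. With both sides in CPM on TMM-scaled totals, 0 of these connections held for any of the 4 genes. The coefficient of MAPK3 with SRGN was then -0.06 and that of CITED2 with SRGN was 0.54.

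The median coefficient of an oocyte gene over all 12313 cumulus genes was 0.72 for SRGN, 0.69 for VIM, 0.69 for CCND2 and 0.67 for TRIB2 on the scale of the study, against a median of 0.29 over 12753 oocyte genes, and the 4 genes stood 3rd, 5th, 6th and 11th. With both sides in CPM on TMM-scaled totals the medians were 0.05 for each of the 4, with a highest median of 0.06 among all oocyte genes. SRGN, VIM, CCND2 and TRIB2 then stood 2nd, 5th, 18th and 14th.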

How the data were processed

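Total RNA of single oocytes and of their cumulus cells was amplified and sequenced. The authors aligned reads with HISAT2 2.1.0 to ARS-UCD1.2 and deposited whole-number counts per Ensembl release 98 gene from featureCounts 1.6.0. Poor alignments and duplicates had been removed before counting. The counts were used as deposited, in 2 tables of 27607 genes.

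Genes with CPM above 2 in at least 9 of 19 libraries were kept (12313 in cumulus cells, 12753 in oocytes, 10281 in both). BCB classes were compared with edgeR 4.0.16 (glmQLFit with robust, TMM factors, R 4.3.3) and Benjamini-Hochberg adjustment over all genes kept, at an FDR of 0.01; SE were derived from the F statistic. DESeq2 1.42.0 was an alternative. Ratios were compared on log2(CPM + 1) by exact permutation with scipy. The edgeR code was tested on simulated data. Alternatives were other scalings, filters, thresholds and covariates, complexes 65 to 74 alone and each complex left out.

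Oocyte and cumulus libraries with the same complex number come from the same complex, by the labels, so numbers pair them; the deviations of same-numbered libraries from their class means correlated between -0.0209 and 0.214 (median 0.0773, 5 of 19 pairs over 0.1), and a fit with the replicate block was an alternative. Depth ran from 1103200 to 29810354 counts per library, and intervals of counts cover counting error only.

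The 4 genes and the gene lists were chosen with earlier results of these data known. Named genes were the 4 genes, list genes past the FDR (up to 10 per list), the 3 named genes most like each gene in cumulus cells, the 3 named cumulus genes best correlated with each in oocytes, and direct relatives; 1 of these genes is not reported here. Symbols for 4934 identifiers came from the study's supplementary tables, which hold mostly genes with low p-values in the BCB comparisons. Of the markers listed for other cells, 0 of 15 leukocyte, 2 of 8 endothelial, 1 of 9 theca and stroma and 1 of 6 red cell genes had a symbol. Sequences, transcript lengths and coordinates were not used here.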

Additional observations from a re-analysis of the deposited data

Results flagged for a closer look

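A gap to the nearest other library was tested in 20 groups of 9 or 10 libraries, and chance flags about 1 in 20 groups. Within BCB positive cumulus cells, VIM stood highest in complex 73, where the gap to the next library was 0.5 of the range of the group against a critical value of 0.493. Without complex 73 the log2 fold change of VIM was -0.46 with an edgeR adjusted p of 0.0705. Within BCB negative oocytes, the summed granulosa marker level stood apart in complex 88, with a gap of 0.539 of the range against a critical value of 0.466. Complex 88 also held the highest SRGN, VIM, CCND2 and TRIB2 of that class, at 351, 360, 30.7 and 50.7 CPM.

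Among complexes 65 to 74 the fitted BCB effect on VIM was larger in oocytes than in cumulus cells by 9.15 ± 1.62 (SE) on the log2 scale, and by 7.94 ± 1.66 with each complex as a replicate block. Over all complexes the value was 1.52 ± 1.41 (edgeR adjusted p 0.724). The value of that run stood out by its size and is given without a test, since VIM was chosen by correlations on a scale that keeps cumulus depth, and cumulus depth and the class cannot be told apart there. All 6 BCB positive oocytes of that run exceeded its 3 BCB negative oocytes, as they did for 4.87% of the 12753 genes tested.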

How the results depend on the processing

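The number of genes called in cumulus cells, 69 at first, was 360 at an FDR of 0.05, 1732 on library totals alone, 365 with DESeq2, 216 by the rule of the study (an edgeR likelihood-ratio test without TMM and DESeq2, both past the threshold), 164 without a filter, 115 with the run of numbers and 2 with the log10 library total as a covariate, and 10 without complexes 66 and 68, an alternative chosen after seeing the data. It ranged from 6 (without complex 24) to 160 (without complex 89) when each complex was left out. The share of calls that were higher in BCB positive cumulus was 7.25% with TMM and 94.1% on library totals. SRGN reversed to 0.27 on library totals and by the rule of the study and to 0.11 with the log10 library total, VIM reversed to 0.14 in the first 2 of these, and CCND2 reversed to -0.18 in complexes 65 to 74. CCND2 (0.76) and TRIB2 (0.92) passed the threshold on library totals. With each complex left out in turn 0 of the 4 genes passed, and their cumulus values kept their sign, from -0.33 to -0.19 for SRGN, -0.46 to -0.31 for VIM, 0.17 to 0.34 for CCND2 and 0.31 to 0.50 for TRIB2.

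With the run of numbers as a covariate CCND2 in cumulus cells was 0.02. In oocytes DESeq2 called 1 gene where edgeR called 0, and a filter of CPM above 2 in all libraries left none of the 4 genes. Across compartments the count of 54 was 123 at an FDR of 0.05, 2 with the replicate block, 578 on library totals, 121 with DESeq2 and 225 without a filter, and ranged from 17 (without complex 71 or 72) to 69 (without complex 88 or 89). DESeq2 reversed VIM to -0.97 and TRIB2 to -0.12, and VIM was 9.15 in complexes 65 to 74, a description without a test, where a replicate block, chosen after seeing the data, left 7 genes called and VIM at 7.94. The ratio differences were larger in complexes 65 to 74, where cumulus depth is split by class, at 5.88 for SRGN, 5.94 for VIM, 3.56 for CCND2 and 3.68 for TRIB2. The cause of these changes was not tested. Of 96 alternative coefficients, 23 lay outside the 95% interval of the first value. Depth limits the low oocyte values most, since VIM, CCND2 and TRIB2 had 2, 0 and 0 counts in their lowest library.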
